A study of Xenopus tropicalis with 12 samples.

Results

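The genes described here were those whose RNA was high in the liver of Xenopus tropicalis tadpoles given thyroid hormone and lower at every natural stage examined. A gene was a member when its mean level in the hormone-treated libraries was at least 5 CPM (the gene's count divided by the library's total and multiplied by 1e6), when that mean was at least 2.5 times the mean of each untreated stage, and when each treated library lay above all 9 untreated libraries. 296 of the 26529 genes of the table met this rule, which was 2.64% of the 11232 genes at 5 CPM or more in the treated group. The members were thus chosen by their measured levels in treated against untreated libraries, and every difference between treated and untreated libraries below is a description with no test. The tests were kept for the comparisons of the untreated stages with each other, which the rule did not make. The rule did hold every stage below T3, so a gene that came near the T3 level at a stage could not be a member. The shares of members called between stages are thus not free of the rule.

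All animals were wild type, came from the same parents and were sampled for liver. The untreated groups were stage 54 (st54, before the natural rise of thyroid hormone), stage 61 (st61, the climax of metamorphosis) and stage 66 (st66, its end). The treated group, called T3, was stage 54 tadpoles kept for 18 h in 10 nM triiodothyronine, the active form of the hormone. Each group held 3 libraries, which came from different tadpoles, per the design text. The treatment was sampled at 1 time only.

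Thyroid hormone enters the nucleus and binds receptors that sit on DNA, which changes the transcription of their target genes and sets off metamorphosis. 2 other systems appear repeatedly among the members. The unfolded protein response is the signalling from the endoplasmic reticulum (ER) that raises chaperones, glycosylation enzymes and vesicle coats when the ER is loaded with unfolded protein, and the liver uses these parts constantly because it secretes most blood proteins. The NF-κB pathway carries signals from tumour necrosis factor receptors and microbial sensors to the nucleus, and raises chemokines, cytokines and its own inhibitors in immune cells and hepatocytes. The roles named below are background, known mostly from mammals and yeast.

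The libraries differed in ways that bear on all the members. Totals ran from 7928459 to 39536147 counts, and the T3 libraries were the deepest apart from st54 replicate 2, which was deeper than T3 replicate 3. The T3 libraries lay close together, with a biological coefficient of variation of 2.56% against 29.9% in st54, 21.6% in st61 and 36.2% in st66. For any pair of T3 libraries the chi-square of their counts was 1.96 to 5.40 a gene, against 15.1 to 179 within the other groups, so the T3 libraries were more than sampling noise apart but much closer than any others. St66 replicate 1 stood apart from st66 replicates 2 and 3, and st54 replicate 3 from the other st54 libraries. Without st66 replicate 1 the rule found 394 genes, 293 of them members, and without st54 replicate 3 it found 323, 277 of them members. With both left out it found 453, which held 275 of the members.

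The choice of scaling mattered as much. On plain CPM a typical gene at 5 CPM was already 0.10 higher on the log2 scale in T3 than in its highest stage. TMM scaling, which sets the bulk of genes level, lowered T3 relative to the untreated libraries by 0.32 on the log2 scale, and 137 of the 296 genes then still met the rule. All 296 kept a T3 mean above every stage mean under TMM, by 1.79-fold or more with a median of 2.49-fold, and in 292 the libraries did not overlap. With DESeq2 size factors the lowest ratio was 1.69-fold, and the libraries of 287 did not overlap. The ratios below are on plain CPM unless another scale is named.

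**Figure D1:**
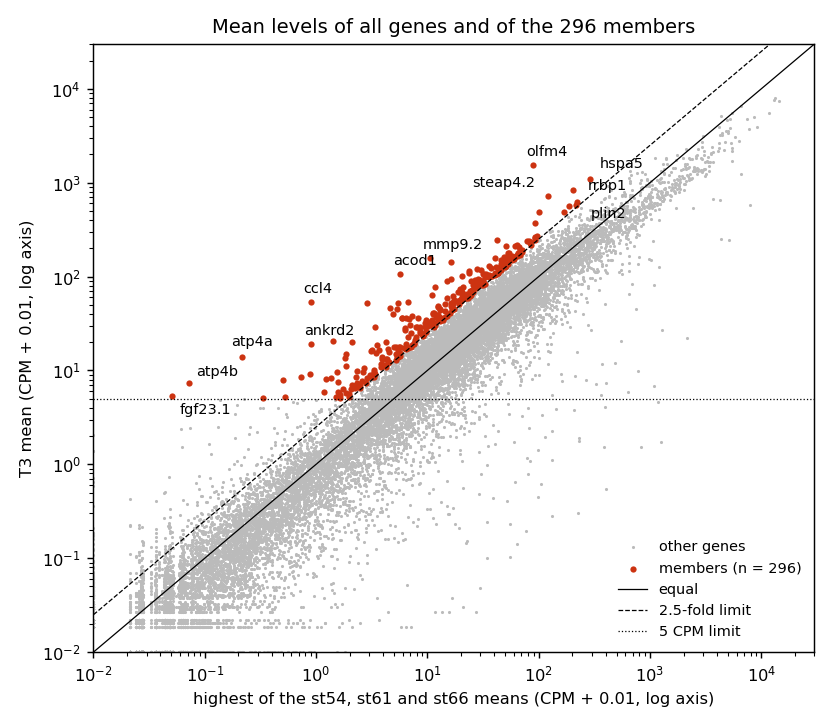
Each point is a gene, with the highest of the 3 stage means on the x axis and the T3 mean on the y axis, both as CPM + 0.01 on log axes. The 296 members (red) lie above the 5 CPM and 2.5-fold limits, and most sit close to the 2.5-fold line, with a median ratio of 3.03.

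The same rule with another group as the high one found 20 genes for st54, 76 for st61 and 35 for st66. These were 0.185%, 0.709% and 0.328% of the genes at 5 CPM in each group, against 2.64% for T3. Without the condition on single libraries the counts were 43, 103 and 64, and 300 for T3. That condition thus removed a smaller share of genes in T3 than in the other groups. Member levels in T3 ran from 5.07 to 1535 CPM with a median of 44.6 CPM. The ratio of the T3 mean to the highest stage mean had a median of 3.03. It was under 3 in 143 members, at least 5 in 44 and at least 10 in 16. The highest stage mean was st54 in 132 members, st66 in 115 and st61 in 49. Just inside the fold limit lay snrnp40, vps39 and epg5 at ratios of 2.502, 2.504 and 2.504, and just outside it znf598, fbxo8 and selenof at 2.496, 2.495 and 2.489. Just inside the level limit lay bcl3, ube2u and dock3 at 5.07, 5.09 and 5.15 CPM, and just outside it tspan1, bag3 and ctse at 4.96, 4.88 and 4.86 CPM. Members took between 2.58% and 2.64% of all reads in the T3 libraries, 1.14% in st66 replicate 1 and 0.409% to 0.813% in the other untreated libraries.

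Of the 296 members, 156 fell into 12 groups by known role, 113 had a symbol and another role, and 27 had no gene symbol. The role groups were assembled after the values had been seen, so their sizes are a description. The most populated were vesicle transport with 32 genes, ER folding with 26, glycosylation with 19, the cytokine system with 16 and NF-κB and death signalling with 15.

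The ER folding members held the chaperones and helpers that keep new secretory proteins soluble. The ratio of T3 to the highest stage ran from 2.52 to 6.52 among the 26, with a median of 3.29. 20 of the 26 still met the rule with TMM scaling, against 6 of the 32 vesicle transport members. hspa5 (BiP, a major ER chaperone, chr8:28183867-28190773) was the second highest member in T3. Its level was 221, 81.9 and 142 CPM in st54, 72.6, 161 and 110 CPM in st61, 712, 97.7 and 61.6 CPM in st66, and 1083, 1101 and 1096 CPM in T3. The T3 mean was 3.77 times the highest stage mean, and the lowest T3 library was 1.52 times the highest untreated library, st66 replicate 1. The other 8 untreated libraries did not come near the T3 level.

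hyou1 (GRP170, which exchanges the nucleotide of BiP) showed the same single high untreated library even more plainly. It stood at 5.19, 6.47 and 27.4 CPM in st54, 12.1, 15.5 and 15.02 CPM in st61, 147, 8.83 and 4.23 CPM in st66, and 173, 169 and 166 CPM in T3. St66 replicate 1 lay 1.13-fold below the lowest T3 library, and st66 replicates 2 and 3 were lower than all 3 st61 libraries. The next co-chaperones differed in that respect. dnajb9 (ERdj4, which turns off the sensor Ire1) was at 22.5, 9.90 and 12.9 CPM in st54, 4.90, 8.45 and 9.39 CPM in st61, 12.4, 3.78 and 5.88 CPM in st66, and 89.6, 87.6 and 92.4 CPM in T3, a ratio of 5.95. hspa13, an ER relative of the heat shock proteins, was at 13.2, 8.98 and 10.7 CPM in st54, 5.11, 11.5 and 7.83 CPM in st61, 10.2, 4.67 and 4.35 CPM in st66, and 64.2, 63.8 and 62.6 CPM in T3. For both the highest untreated library was in st54, not st66 replicate 1, and T3 was well clear of it.

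Oxidative folding and secreted ER stress factors followed. ero1a (chr8:95570419-95587475), the oxidase that passes disulfide bonds to protein disulfide isomerases, had the largest ratio of the ER folding members at 6.52. It stood at 4.89, 4.12 and 23.6 CPM in st54, 8.07, 11.2 and 8.37 CPM in st61, 25.6, 5.68 and 3.997 CPM in st66, and 79.5, 75.3 and 75.4 CPM in T3. Here st54 replicate 3 and st66 replicate 1 were the raised untreated libraries. manf (chr4:127355690-127358922), a small ER protein released on calcium loss, was at 41.6, 22.4 and 61.9 CPM in st54, 12.4, 24.2 and 28.8 CPM in st61, 76.8, 15.01 and 21.2 CPM in st66, and 244, 246 and 243 CPM in T3. creld2, another stress-induced ER protein, averaged 64.1 ± 2.701 CPM (SD, n = 3) in T3 and 20.3 ± 24.9 CPM in st66, where replicate 1 held 48.9 CPM. The large SD at st66 comes from that 1 library.

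Parts of ER quality control and its sensors were also present. atf6, the membrane-bound factor that is cut under ER stress and then raises chaperone genes, was at 25.7, 27.8 and 48.9 CPM in st54, 42.5, 43.5 and 38.1 CPM in st61, 83.0, 21.7 and 18.3 CPM in st66, and 130, 127 and 124 CPM in T3. edem1 and edem3, which mark misfolded glycoproteins for disposal, reached 217 ± 5.05 and 36.7 ± 0.644 CPM in T3, at 3.38 and 3.101 times their highest stage means. derl2, a channel for that disposal, reached 68.3 ± 0.9499 CPM and 3.66-fold. Both genes of the glucosyltransferase family that checks folding, uggt1 and uggt2, were members, at 93.2 ± 2.47 and 11.7 ± 0.685 CPM in T3. The remaining ER folding members included dnajc3, dnajc10 and sdf2l1, which are BiP partners, sil1 and ficd, which set its activity, and mlec, erlec1, faf2 and txndc11.

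A list of 38 ER folding and unfolded protein response genes, drawn up with earlier results of these data known, held 14 members. Of its 24 other genes at 1 CPM or more in some group, 22 (91.7%) had a T3 mean above every stage mean, against 49.9% of all 14021 such genes that were not members, and 6 were at least 2-fold above against 3.801%. With TMM scaling these became 18 of 24 against 30.2%, with 1 gene 2-fold above against 0.706%. canx and pdia6 were 2.35-fold and 2.27-fold above their highest stage mean, and xbp1, a main factor of the response, only 1.32-fold. calr and hsp90b1, ER chaperones with higher T3 means than hspa5, were higher in st66 replicate 1 (2126 and 1707 CPM) than in the T3 group (1846 and 1207 CPM on average). ddit3, which encodes the death-linked factor CHOP, was at 24.2 to 27.1 CPM in T3 and up to 21.8 CPM in st54.

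**Figure D2:**
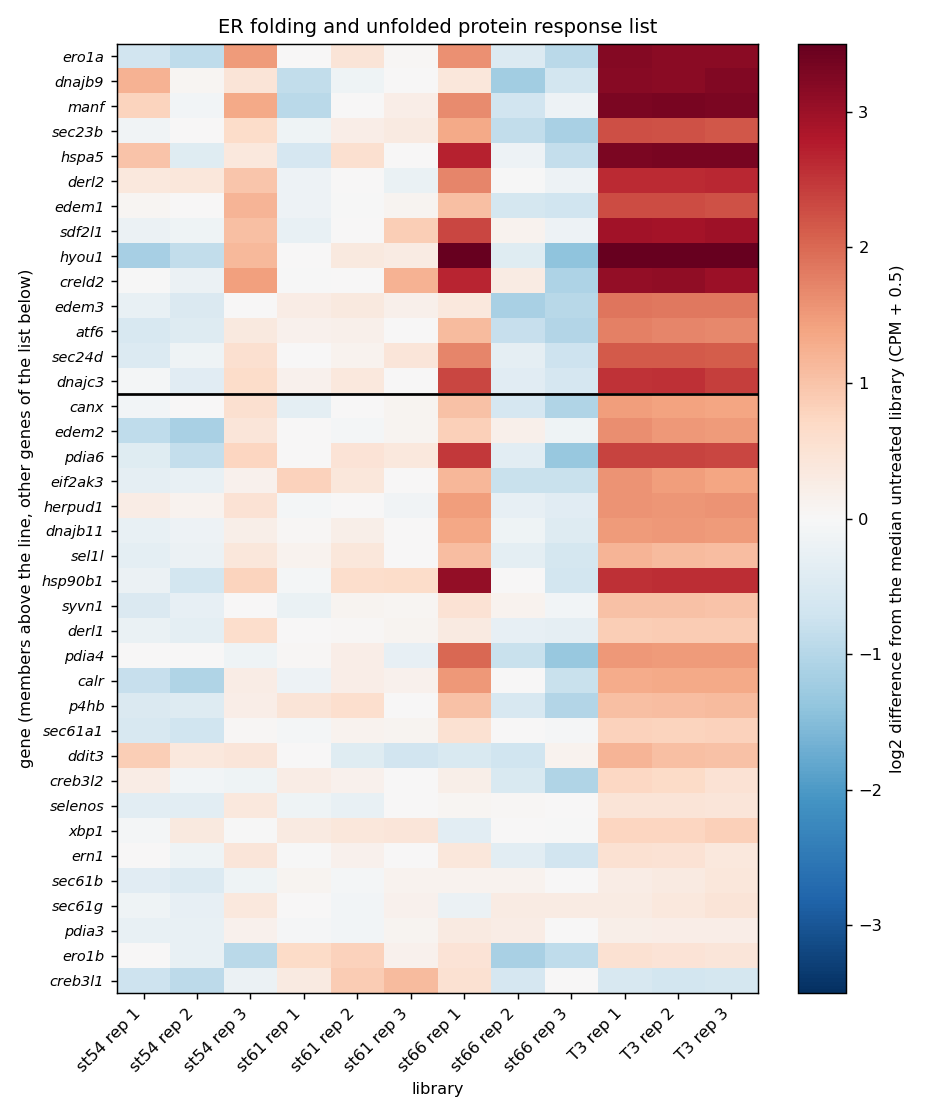
Rows are the 38 genes of the ER list, with the 14 members above the line and the other 24 below, and columns are the 12 libraries. Colour is the log2 difference of CPM + 0.5 from the median untreated library; the T3 columns and st66 replicate 1 are red over most rows, while st66 replicates 2 and 3 are mostly pale blue.

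Entry into the ER was represented by 10 members. srp54 binds signal peptides as they leave the ribosome, srprb anchors the receptor, spcs3 is a signal peptidase subunit, and emc2 and emc6 belong to the complex that inserts membrane proteins. rrbp1, a ribosome-binding protein of the rough ER, was the most abundant of them. It was at 113, 169 and 247 CPM in st54, 155, 160 and 152 CPM in st61, 418, 117 and 80.1 CPM in st66, and 850, 844 and 825 CPM in T3, a ratio of 4.10. Every other ER entry gene was below that ratio, and the lowest was at 2.54. 3 of the 10 still met the rule with TMM scaling. 2 of 6 srp genes and 2 of 9 emc genes at 5 CPM were members, against 2.64% of all genes at that level. Families were counted only where at least 2 genes were members, so the family counts here and below were picked by outcome. Others lay near the share of all genes, such as ccdc with 2 of 56 and fam with 2 of 84.

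Glycosylation members acted at each step of building and attaching sugar chains. stt3a (chr7:74077879-74100285), the catalytic subunit that transfers the N-glycan, stood at 176, 183 and 283 CPM in st54, 208, 230 and 171 CPM in st61, 426, 108 and 79.9 CPM in st66, and 589, 571 and 581 CPM in T3. rpn1, a subunit of the same enzyme, averaged 489 ± 7.95 CPM in T3 and was 2.92-fold above its highest stage mean. The enzymes that assemble the lipid-linked glycan included dpagt1, alg2, alg5, alg6 and alg11. So 4 of the 12 alg genes at 5 CPM were members, against 2.64% of all genes. alg11 had the largest ratio of the group at 4.41, with 6.82, 6.06 and 6.73 CPM in st54, 6.91, 7.83 and 4.45 CPM in st61, 13.1, 3.66 and 4.11 CPM in st66, and 31.9, 30.8 and 29.3 CPM in T3. Nucleotide sugar carriers of the slc35 family supply the donor sugars, and slc35a2, slc35a5, slc35b1, slc35b4 and slc35d2 were members. slc35d2 shares exon bases with abraxas1 on the opposite strand, which had a higher T3 mean, so its value is uncertain. 8 of the 19 glycosylation members kept the rule with TMM scaling.

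The 32 vesicle transport members were raised least, with a median ratio of 2.68. They held the inner coat of ER export vesicles (sec23b, sec24b, sec24c, sec24d), its scaffold sec16a, cargo receptors (lman2, tmed7, tmed9, tmed10l), the receptor kdelr1 that returns escaped ER proteins, fusion proteins (stx5, bet1, bnip1), and Golgi tethers (golga2, golga3, golga4). sec23b (chr5:37593706-37608904) was at 71.9, 78.9 and 123 CPM in st54, 70.7, 92.1 and 98.2 CPM in st61, 198, 43.0 and 35.4 CPM in st66, and 375, 374 and 359 CPM in T3, a ratio of 4.01. tmed10l, a p24 cargo receptor, was at 13.7, 14.9 and 20.5 CPM in st54, 12.6, 15.004 and 10.7 CPM in st61, 22.9, 7.57 and 12.1 CPM in st66, and 94.1, 92.6 and 95.1 CPM in T3. Its 5.74-fold ratio and that of bet1 at 5.28 were the largest of the group. mia3, the receptor for very large cargo such as collagen and lipoproteins, averaged 168 ± 6.29 CPM in T3 and was 2.64-fold above. By family, 5 of 24 sec genes, 3 of 10 tmed genes and 3 of 6 golga genes at 5 CPM were members, against 2.64% of all genes.

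8 members carry metal ions or regulate such carriers. atp2a2 is the pump that fills the ER with calcium, slc39a7 releases zinc from it, and slc30a7 and slc30a6 load zinc into the early secretory pathway, while micu3 regulates calcium uptake by mitochondria. slc39a7 had the largest ratio of the 8 at 4.13, with 22.7, 25.3 and 57.4 CPM in st54, 38.1, 50.6 and 39.3 CPM in st61, 117, 18.8 and 15.99 CPM in st66, and 210, 210 and 207 CPM in T3. In all 8 the highest untreated library was st66 replicate 1. 3 of the 8 kept the rule with TMM scaling. slc33a1, which brings acetyl-CoA into the ER, was at 109 ± 2.05 CPM in T3 and 58.6 CPM in st66 replicate 1.

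St66 replicate 1 was raised along with T3 in many members. It was the highest untreated library in 149 members (50.3%), against 3900 of 10936 other genes at 5 CPM (35.7%). By group this held for 21 of 26 ER folding, 8 of 10 ER entry, 13 of 19 glycosylation and 28 of 32 vesicle transport members, and for none of the 15 NF-κB and death signalling members. It held for 56 of the 113 other named members, 3 of the 5 stomach and muscle members, 3 of the 16 cytokine system members and 1 of the 10 inflammatory effectors. The median ER folding member was 1.57 higher on the log2 scale in st66 replicate 1 than in the median untreated library, 0.74 higher in st54 replicate 3, and 0.43 and 0.69 lower in st66 replicates 2 and 3. It was 2.53 to 2.58 higher in T3. In the NF-κB and death signalling group the same median was 0.09 in st66 replicate 1 and 1.99 to 2.21 in T3. Mitosis genes, summed over a list of 44, were also highest in st66 replicate 1, at 998 CPM against 119 and 143 CPM in st66 replicates 2 and 3. The part of that library's state in the stage means was not tested.

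**Figure D3:**
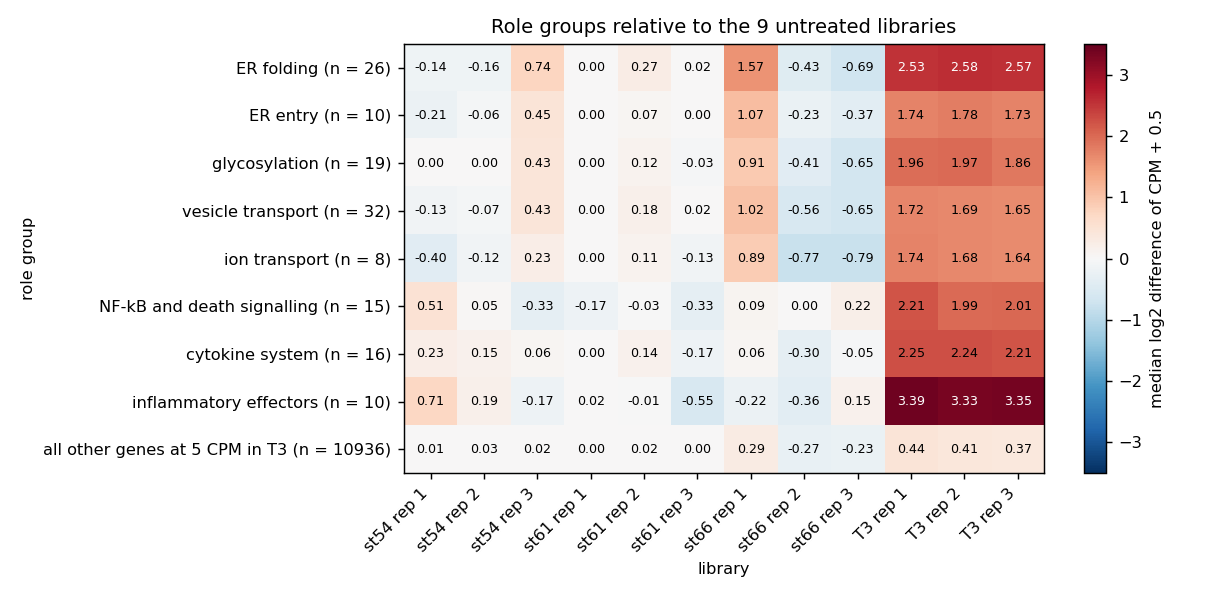
Rows are 8 role groups of members and all other genes at 5 CPM in T3, columns the 12 libraries, and each cell the median log2 difference of CPM + 0.5 from the median untreated library. The secretory rows are raised in T3 and, less, in st66 replicate 1 (1.57 for ER folding), while the NF-κB row is near 0 in st66 replicate 1 (0.09).

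NF-κB and death signalling held 15 members, of which 10 still met the rule with TMM scaling. relb (chr8:71129241-71150816), the NF-κB subunit of the slower, noncanonical branch, ran from 8.10 to 16.1 CPM among the untreated libraries and was level only within st66. It was at 12.3, 16.1 and 9.29 CPM in st54, 10.5, 10.7 and 8.10 CPM in st61, 10.5, 10.6 and 10.8 CPM in st66, and 49.98, 48.6 and 42.5 CPM in T3, a ratio of 3.74. traf3, which holds that branch off, was at 6.56, 7.86 and 6.25 CPM in st54, 6.54, 6.13 and 4.88 CPM in st61, 6.16, 6.05 and 6.35 CPM in st66, and 37.6, 35.2 and 32.9 CPM in T3. The lowest T3 library was 4.18 times the highest untreated library, and the 9 untreated libraries of traf3 lay close together. Receptors upstream of the pathway, ltbr, tnfrsf4, tnfrsf9 and tnfrsf21, and the decoy receptor tnfrsf6b were members too. These held 4 of 9 genes named tnfrsf at 5 CPM, against 2.64% of all genes. tnip1 and tank, which damp the signal, averaged 177 ± 5.94 and 118 ± 4.24 CPM in T3.

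Among the death signalling genes, ripk3.1 and mlkl belong to necroptosis, in which the kinase RIPK3 activates the pore protein MLKL. ripk3.1 was at 9.87, 2.48 and 2.24 CPM in st54, 3.48, 2.99 and 1.66 CPM in st61, 4.64, 4.16 and 5.06 CPM in st66, and 40.8, 41.4 and 38.4 CPM in T3, the largest ratio of the group at 8.26. mlkl was at 34.2 ± 0.310 CPM in T3 and 9.80 ± 1.34 CPM at st66, its highest stage. ripk2, the kinase that serves NOD receptors, was at 19.2 ± 1.49 CPM in T3 and 3.00-fold above. tnfrsf9 separated least, since st66 replicate 3 held 11.4 CPM against 12.1 to 15.9 CPM in T3. The NF-κB subunits nfkb1 and nfkb2 were no members, with T3 means 2.02 and 1.4997 times their highest stage means.

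The chemokine ccl4 (chr2:97662524-97666006), which attracts monocytes and lymphocytes, had the largest ratio of all members with more than 10 reads in every stage. It was at 0.729, 0.885 and 0.561 CPM in st54, 1.002, 0.902 and 0.751 CPM in st61, 0.858, 0.757 and 0.588 CPM in st66, and 54.8, 53.0 and 53.8 CPM in T3, a ratio of 60.9. The libraries of the 3 stages overlapped, all far below T3. Its neighbours on either side, LOC105946710 and LOC101730633, were also members, at 7.82 ± 0.509 and 52.4 ± 1.66 CPM in T3 and 15.9-fold and 18.2-fold above. The files give no name to these loci, and reads of near-identical copies could be split among them. ccl20, which attracts cells carrying the receptor CCR6, was at 8.52, 8.57 and 8.13 CPM in T3 and 0.322 to 0.9496 CPM in the 9 untreated libraries.

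cxcl8, the main chemokine for neutrophils, varied widely before treatment. It was at 14.9, 3.68 and 1.28 CPM in st54, 0.844, 1.42 and 1.34 CPM in st61, 3.13, 5.55 and 11.2 CPM in st66, and 52.9, 52.7 and 55.3 CPM in T3. il10, a cytokine that restrains inflammation, was at 1.72, 3.61 and 0.961 CPM in st54, 0.316, 0.142 and 0.215 CPM in st61, 0.151, 0 and 0.235 CPM in st66, and 20.5, 18.7 and 21.1 CPM in T3. il18bp, the soluble trap for interleukin 18, was at 20.5 ± 0.595 CPM in T3 and 14.6-fold above its highest stage. So both attractants and restraining factors were among the members. 8 of the 16 cytokine system members kept the rule with TMM scaling. The receptors il1r2 (a decoy), il4r, il6r, il27ra, il10rb and il1rap, the growth factor csf1, the signal transducer stat3.2, its feedback inhibitor socs3l and sbno2 were members at 2.58-fold to 4.35-fold.

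A list of 34 interferon and cytokine genes, written with earlier results known, held 5 members, namely ccl4, ccl20, cxcl8, il6r and relb. Of its 26 other genes at 1 CPM, 16 had a T3 mean above every stage mean against 49.9% of such genes in the table, and 12 against 30.2% with TMM scaling. The interferon genes of the list were mixed. mx1, usp18 and rsad2 were lower in T3 than in their highest stage, at 0.46, 0.17 and 0.47 of its mean. ifih1, irf1, irf9 and stat2 were above it, at 1.55-fold, 1.55-fold, 1.33-fold and 1.33-fold, short of the 2.5-fold limit. il1b was 2.20-fold above its highest stage mean, and tnf 1.35-fold. il6 had 0 reads in all but 1 library.

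**Figure D4:**
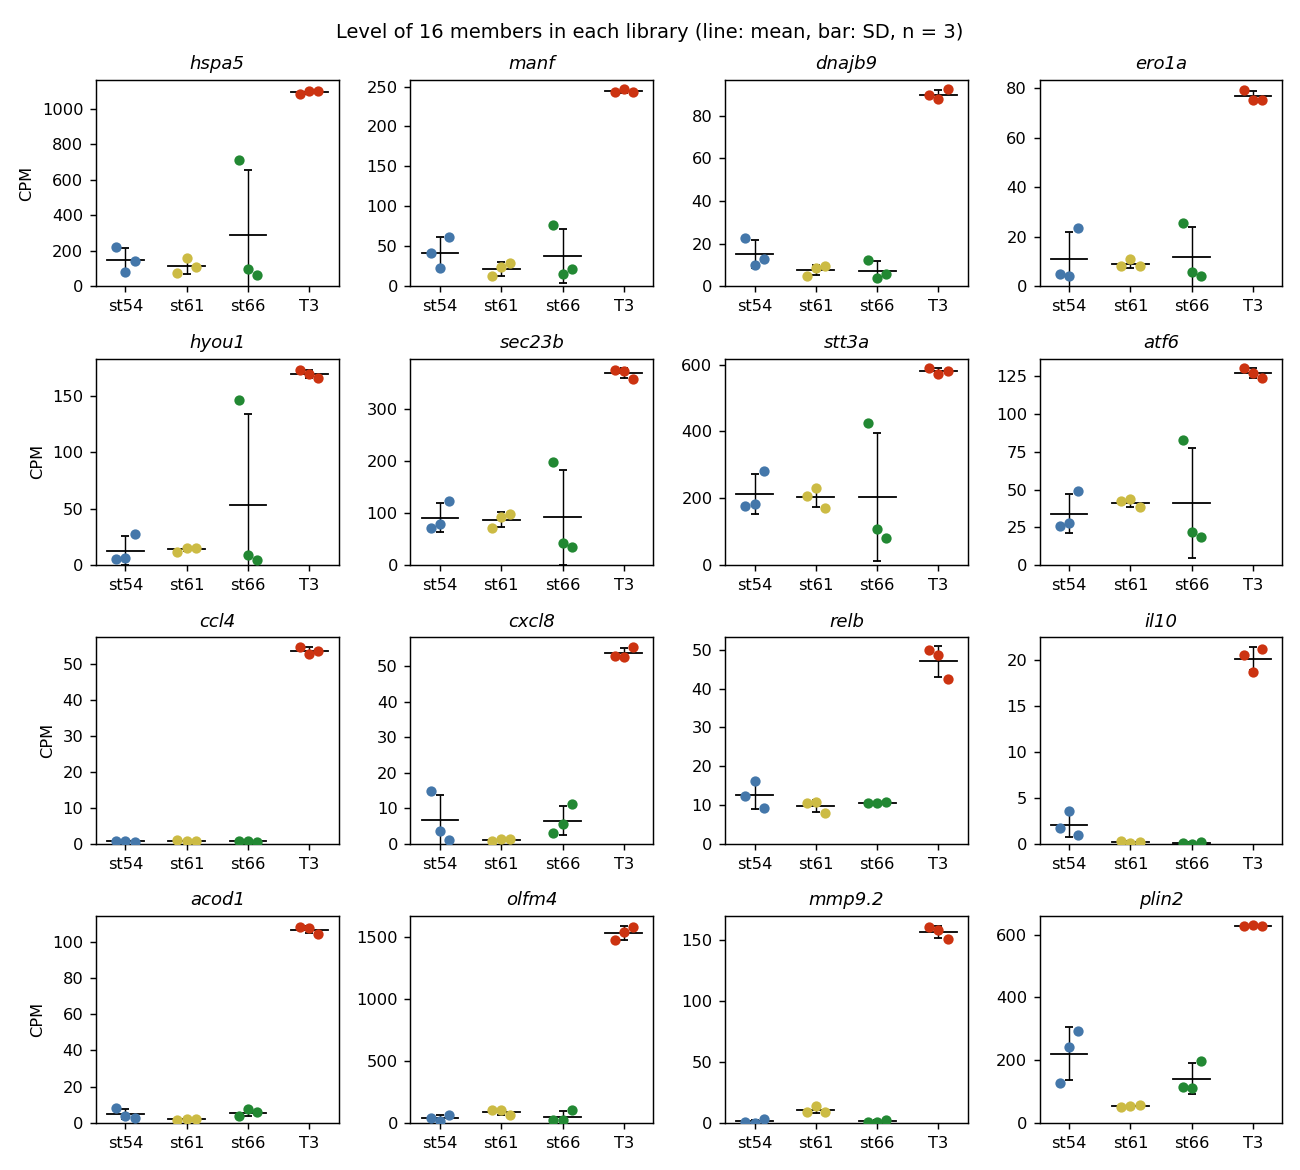
CPM of 16 members in each of the 12 libraries, 1 panel a gene, with points for libraries, a line for the mean and a bar for the SD (n = 3), on linear axes that start at 0. The T3 points lie nearly on each other and above all others, while st66 is split by replicate 1 in hspa5, hyou1, sec23b and stt3a but not in ccl4, relb or acod1.

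10 members encode enzymes and secreted products of inflamed tissue, and this group had the highest median ratio of the larger role groups at 6.37. olfm4 (chr8:79187184-79194263), which encodes olfactomedin 4, a glycoprotein of neutrophil granules and intestinal crypt cells, had the highest T3 level of all members. It was at 37.5, 18.8 and 67.1 CPM in st54, 105, 102 and 63.0 CPM in st61, 20.8, 24.7 and 107 CPM in st66, and 1476, 1544 and 1585 CPM in T3, a ratio of 17.1. acod1, whose enzyme makes itaconate in activated macrophages, was at 8.19, 4.05 and 2.64 CPM in st54, 1.37, 2.18 and 2.20 CPM in st61, 3.63, 7.44 and 5.996 CPM in st66, and 108, 107 and 105 CPM in T3. For both genes even the lowest T3 library was more than 12 times the highest untreated library.

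The matrix protease gene mmp9.2, named for the gelatinase MMP9 that remodels tissue in mammals, was also higher at climax. It was at 0.472, 0.272 and 2.88 CPM in st54, 8.91, 13.7 and 9.17 CPM in st61, 0.555, 1.14 and 2.23 CPM in st66, and 161, 159 and 151 CPM in T3. steap4.2, a metalloreductase, was at 166, 108 and 91.2 CPM in st54, 108, 46.5 and 37.0 CPM in st61, 9.54, 12.1 and 134 CPM in st66, and 711, 717 and 711 CPM in T3. ch25h, which makes 25-hydroxycholesterol, and il4i1, an amino acid oxidase, reached 35.8 ± 1.17 and 8.16 ± 0.513 CPM in T3. selp, the adhesion molecule P-selectin, was at 14.8 ± 1.30 CPM and 7.98-fold above. 8 of the 10 kept the rule with TMM scaling.

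Summed immune cell markers in T3 stayed within the range of the untreated libraries. 23 of 32 listed myeloid markers were in the table, none was a member, and their summed level was 2540 to 2646 CPM in T3, inside the range of the untreated libraries at 1738 to 3632 CPM. 4 of the 23 had a T3 mean above every stage mean, against 49.9% of all genes at 1 CPM that were not members. With TMM scaling these became 2 of 23 against 30.2%. The neutrophil marker mpo was at 385 to 402 CPM in T3 and 203 to 710 CPM in untreated libraries, and lyz was near 0 in most libraries. Lymphocyte markers, 25 of 34 in the table, summed to 152 to 162 CPM in T3 and 123 to 254 CPM elsewhere. Hepatocyte markers, with 24 of 25 in the table, summed to 59829 to 64515 CPM in T3 and 66351 to 97579 CPM elsewhere. The sum remained lower in T3 with TMM scaling at 49388 to 55847 CPM against 66631 CPM or more. Abundant genes such as alb, tf and c3 weigh most in it, with T3 means at 0.59, 0.52 and 0.61 of their highest stage means. The list was mixed, since hnf4a, prox1 and foxa1 were at 1.38, 1.92 and 1.16 times theirs. On plain CPM 5 of the 24 lay above every stage mean and 6 below, and with TMM scaling 2 and 13. In sums from such bulk samples fewer cells of a type, less RNA per cell and lower levels of single abundant genes cannot be told apart.

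7 members encode growth factors or hormones, and 1 of the 7 kept the rule with TMM scaling. fgf19 (chr4:12861363-12867627), the gut and liver hormone that restrains bile acid synthesis in mammals, was at 6.22, 5.31 and 4.33 CPM in st54, 1.58, 2.04 and 4.72 CPM in st61, 1.97, 1.51 and 2.94 CPM in st66, and 45.6, 47.7 and 41.9 CPM in T3, a ratio of 8.53. fgf23.1, related to the phosphate hormone, was almost silent before treatment, with 2 reads in st54, 1 in st61 and 0 in st66, and stood at 5.06, 6.05 and 5.02 CPM in T3. From pooled reads, T3 was 175 times st54 with a 95% exact counting interval of 48.2 to 1448, and at least 64.8-fold higher than st66 against a floor of 3 counts over the group. These were the 2 members among 20 fgf genes in the table, of which 2 reached 5 CPM in T3. stc2, a secreted stanniocalcin, was at 253 to 258 CPM in T3, while st54 replicate 3 held 206 CPM and the other untreated libraries 15.4 to 85.3 CPM. tgfa and agrp, ligands of the EGF and melanocortin receptors, were at 5.16 ± 0.356 and 9.58 ± 0.691 CPM. With TMM scaling fgf23.1 and tgfa kept ratios of 110 and 2.84 but fell below the 5 CPM limit. agrp, stc2, angpt2 and pdgfb missed the 2.5-fold limit there, at ratios of 2.06 to 2.43.

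4 members were cytosolic heat shock genes, and 2 of the 4 kept the rule with TMM scaling. A list of heat shock and immediate early genes held 3 members among 35 genes at 5 CPM, against 2.64% of such genes. Of its 37 other genes at 1 CPM, 5 were more than 2-fold above every stage mean, against 3.801%, and 10 were below every stage mean. With TMM scaling 2 of the 37 were more than 2-fold above, against 0.706%, and 13 were below, against 4213 of 14022. hspa1b was at 6.39 ± 0.121 CPM in T3 and 3.66-fold above, hsp30e at 11.5 ± 0.0419 CPM and 2.92-fold, dnajb5 at 13.5 ± 0.588 CPM and 7.41-fold, and hsph1 at 36.0 ± 1.75 CPM and 2.72-fold. In hsph1 st66 replicate 1 held 29.4 CPM. Of the stress-linked factors, atf3 was at 19.5, 17.7 and 18.2 CPM in T3 against 2.83 to 11.3 CPM in the untreated libraries. chac1, which breaks down glutathione, was at 146 ± 2.54 CPM in T3 and up to 74.9 CPM in st54. wars1, the tryptophan tRNA synthetase, was the only 1 of 19 listed synthetases that was a member, at 2.91-fold.

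Fat storage and metabolism gave single members, and 1 of the 4 in the lipid group kept the rule with TMM scaling. plin2 (chr1:119019399-119026419), which coats lipid droplets, was at 127, 241 and 292 CPM in st54, 50.04, 52.5 and 57.7 CPM in st61, 115, 111 and 198 CPM in st66, and 629, 629 and 628 CPM in T3. Its climax libraries were the lowest and did not overlap with any other. soat1, which stores cholesterol as esters, was at 179 ± 4.42 CPM in T3 and 2.77-fold above. h6pd, which makes NADPH inside the ER, was at 565 ± 5.08 CPM. slc2a1, the basal glucose transporter, was at 132 ± 2.29 CPM and 2.64-fold above, and sds, which breaks down serine, at 6.50 ± 0.710 CPM. sds shares exon bases with plbd2 on the opposite strand, which had a higher T3 mean.

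5 members belong to stomach or muscle, and their median ratio of 21.2 was the highest of the role groups. All 5 kept the rule with TMM scaling. atp4a and atp4b, the subunits of the gastric proton pump, were at 14.8, 14.0 and 12.6 CPM and at 8.07, 7.12 and 6.69 CPM in T3. Over the 9 untreated libraries together atp4a had 3, 1 and 8 reads in st54, st61 and st66, and atp4b 5, 0 and 0. T3 was at least 144-fold higher than st61 for atp4b. Of 13 stomach genes in the table, on a list chosen after the values were seen, 2 were members. Without these 2 members the other 11 genes summed to 34.1 to 35.6 CPM in T3 and 7.05 to 32.0 CPM in the untreated libraries. Most of it came from cblif (25.4 to 26.9 CPM in T3 and up to 19.8 CPM elsewhere) and kcnq1. The kcnq1 mean was 7.09 CPM in T3, 9.02 CPM in st54, 10.6 CPM in st61 and 6.11 CPM in st66. These sums are on plain CPM. TMM divides the T3 libraries by 1.16 to 1.21 and st61 replicate 1, the highest untreated library here, by 0.930. With TMM scaling the T3 sums thus lay below that library. gkn1 had 0 reads in every library and pgc was at 0 in all but 1 T3 library. ctse, which encodes a gastric protease, missed the level limit at 4.86 CPM.

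ankrd2, a muscle stress protein, was at 0.129, 0.408 and 0.641 CPM in st54, 0.580, 0.237 and 0.536 CPM in st61, 0.505, 1.01 and 1.18 CPM in st66, and 18.2, 19.9 and 18.8 CPM in T3. myh6, a cardiac myosin heavy chain, was at 0.129, 0.238 and 8.49 CPM in st54, 0.0527, 0 and 0.912 CPM in st61, 9.19, 0 and 0.235 CPM in st66, and 18.4, 15.8 and 15.7 CPM in T3. myl3 was at 13.5 CPM in st66 replicate 1, at most 0.481 CPM in the other untreated libraries and 14.9 to 16.6 CPM in T3. A list of heart genes chosen after the values were seen, with 14 in the table, held these last 2 as members. Without them the other 12 genes summed to 103 to 106 CPM in T3, 104.5 CPM in st66 replicate 1, 92.3 CPM in st54 replicate 3 and 39.1 to 62.5 CPM elsewhere, so T3 overlapped with st66 replicate 1. A large part of each sum was gata4, at 49.7 to 49.99 CPM in T3 and 36.2 to 56.7 CPM in the untreated libraries. In st66 replicate 1 gata4 was at 45.8 CPM, so leaving it out would not put T3 above that library. myl7, tnni3 and tnnc1 passed the level and fold limits but overlapped between libraries. myl4, on the same list, went the other way, with a T3 mean of 0.271 CPM, below every stage mean. It was at 0.172, 0 and 10.3 CPM in st54 and 0.105, 0.0475 and 2.68 CPM in st61. In st66 myl4 was at 2.78, 0 and 0.9405 CPM, and in T3 at 0.379, 0.252 and 0.181 CPM. Its stage means thus rest mostly on single libraries. Of the 8 other heart genes at 1 CPM, 6 had a T3 mean above every stage mean, against 49.9% of such genes. 5 of the 8 were more than 2-fold above, against 3.801%. With TMM scaling these counts were again 6 and 5 of 8, against 30.2% and 0.706%. Since the heart list was chosen after these values were seen, the shares only describe it and lend no support. The cardiac factor nkx2-5 was at or below 0.181 CPM and nppa at or below 0.808 CPM in every library. The part of heart or stomach tissue in the T3 samples was not tested.

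The remaining 113 named members had varied roles, and 44 of them kept the rule with TMM scaling. Those with the largest ratios were ube2u at 15.6, aipl1 at 10.4, dock3 at 10.0, hmga2 at 9.62 and plekhn1 at 8.74. hmga2, an architectural chromatin protein, was at 1.59, 2.01 and 5.53 CPM in st54, 2.79, 4.18 and 9.17 CPM in st61, 3.99, 3.66 and 5.41 CPM in st66, and 55.3, 49.8 and 50.2 CPM in T3. nr0b1, an orphan nuclear receptor that represses steroid genes, was at 158 ± 0.967 CPM in T3 and 3.88-fold above. amd1 and srm, enzymes of polyamine synthesis, were at 234 ± 3.51 and 101 ± 4.73 CPM in T3, with 164 and 88.1 CPM in st66 replicate 1. Autophagy genes atg5, vmp1 and epg5 and both genes named vkorc1 and vkorc1l1, which recycle vitamin K for clotting factors, were members too. timp3, an inhibitor of matrix proteases, was a member at 2.51-fold.

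A list of genes linked to the hormone response was read from the same libraries. None of the 19 thyroid hormone response genes in the table was a member. 15 of them reached 5 CPM in T3, and with 2.64% of such genes members a count of 0 is near the background. thrb, the receptor gene that the hormone induces, was at 30.4, 29.1 and 29.2 CPM in T3 and 0.987, 1.57 and 0.481 CPM in st54, but at 17.2 to 20.04 CPM in st61. klf9, another early target, was at 44.5 to 48.1 CPM in T3 and 25.9 to 32.8 CPM in st61. thibz, which encodes a bZIP transcription factor known as an early hormone target in tadpoles, was at 70.4 to 73.0 CPM in T3 and 301 to 429 CPM in st61, and dio3, which inactivates the hormone, at 425 to 434 CPM in T3 and 452 to 985 CPM in st54. Each of these 4 genes was thus as high, or within 2.5-fold, in at least 1 untreated stage. Lists for the Wnt pathway, cholesterol synthesis, ribosome biogenesis, DNA replication and mitosis held no member among the 27 to 53 genes at 5 CPM on each. With 2.64% of all such genes members, 0 on a list of that size is also near the background.

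The stages were compared with each other in the 9 untreated libraries with the quasi-likelihood test of edgeR, adjusted by Benjamini and Hochberg's method over all 14724 genes tested, and a gene was called at an adjusted p under 0.05. 288 members passed the filter on low counts. The other 8 (aipl1, atp4b, atp4a, fgf23.1, ube2u, myl3, LOC116411539 and LOC101734054) were too low without T3 to test. In st61 against st54, 6 members rose, where 6.8% of all genes tested were called higher, and 12 fell, where 4.46% of all were called lower. The members called higher were 2.08% and those called lower 4.17% of the 288. In st66 against st54, 3 rose against 4.28% of all genes and 8 fell against 3.18%. In st66 against st61, 4 rose against 1.93% of all genes and 1 fell against 1.49%. The median member differed by -0.12, 0.08 and 0.15 on the log2 scale in these 3 comparisons. Because the rule left out genes that came near the T3 level at a stage, the member shares partly follow from it.

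No member of the ER folding, ER entry, glycosylation, vesicle transport, ion transport or NF-κB and death signalling groups was called between stages. These groups held 26, 10, 19, 32, 8 and 15 tested members. Of all genes tested, 1.49% to 6.8% were called in a given comparison and direction, so 0 in the smaller groups is near that share. hspa5 differed by 0.87 on the log2 scale between st66 and st54 with a standard error of 0.69. The members varied widely within st66. The SD was a median of 61.1% of the mean over the st66 libraries of the members, against 34.7% for all genes at 5 CPM. It was 33.3% in st54, 17.9% in st61 and 3.16% in T3. In counts simulated for st61 against st54 the test recovered 84% of 4-fold and 10% of 2-fold changes. The simulation gave each gene the spread typical of its level, so these shares do not carry over to more variable members or to st66. hyou1 was 3.72-fold higher in st66 than in st54 (log2 1.90 ± 1.03, SE) and was not called (edgeR adjusted p = 0.331).

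Without st66 replicate 1, the same counts were 11 and 20 for st61 against st54, 8 and 14 for st66 against st54, and 14 and 15 for st66 against st61. The calls over all genes tested also rose in that setting, to 9.64% and 8.35%, 10.3% and 7.24%, and 10.8% and 8.02%. With st54 replicate 3 left out as well they were 43 and 32, 19 and 23, and 26 and 47. In that last setting 16% and 14.1% of all genes tested were called higher and lower in st61 against st54, 14.7% and 11.6% in st66 against st54, and 16.6% and 14.7% in st66 against st61.

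Some members were called between stages. il10 was 14.5-fold lower in st66 than in st54 (log2 -3.86 ± 0.78, SE, edgeR adjusted p = 0.0174), and it was also called lower in st61. itga2, an integrin chain that binds collagen, fell 4.69-fold from st54 to st66 (log2 -2.23 ± 0.25, edgeR adjusted p = 0.000982). Its libraries were at 13.5, 12.6 and 13.2 CPM in st54, 11.1, 14.6 and 9.28 CPM in st61, 2.68, 2.77 and 2.12 CPM in st66, and 45.2, 43.7 and 42.5 CPM in T3. The st66 libraries lay below all others. From st54 to st61 the difference of -0.12 ± 0.23 on the log2 scale did not pass the test (edgeR adjusted p = 0.821).

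plin2 fell 3.96-fold from st54 to st61 (edgeR adjusted p = 0.0116) and grina, an ER and Golgi membrane protein of a family that protects cells from death, fell 3.25-fold (edgeR adjusted p = 0.00653). grina rose again by 2.81-fold from st61 to st66 (edgeR adjusted p = 0.0302). wwc1, a regulator of growth control by the Hippo pathway, fell 2.24-fold from st54 to st61 (edgeR adjusted p = 0.0359) and was 2.73-fold higher at st66 than at st61 (edgeR adjusted p = 0.0350). The st66 against st61 calls of grina and wwc1 were each lost in 7 of 16 alternatives, with adjusted p up to 0.148 and 0.145, both without st61 replicate 2. mmp9.2 was 9.89-fold higher in st61 than in st54 (edgeR adjusted p = 0.0329), a call lost in 6 of 16 alternatives. mmp1, an interstitial collagenase, fell 4.27-fold over the same interval (edgeR adjusted p = 0.0144).

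atrn, which encodes attractin, and rras, a small GTPase, were 1.999-fold and 1.94-fold higher in st61 than in st54 (edgeR adjusted p = 0.00846 and 0.0171). atrn was also called in st66 against st54 at 1.64-fold (edgeR adjusted p = 0.0473), a call lost in 10 of 16 alternatives. sds fell from 125 reads in st54 to 3 in st61, and hrh2, the H2 histamine receptor, was 7.69-fold lower in st66 than in st54 (edgeR adjusted p = 0.0144). 3 members with no symbol, LOC101732075, LOC100485969 and MGC108322, were called higher in st61 than in st54, and the first 2 also in st66. Of 16 alternatives, 2 lost the calls of il10 and hrh2 in st66 and of plin2 and mmp1 in st61, and 3 lost that of rras, each without 1 library. The calls of itga2, sds and, in st61 against st54, grina and atrn were lost in none of the 16.

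**Figure D5:**
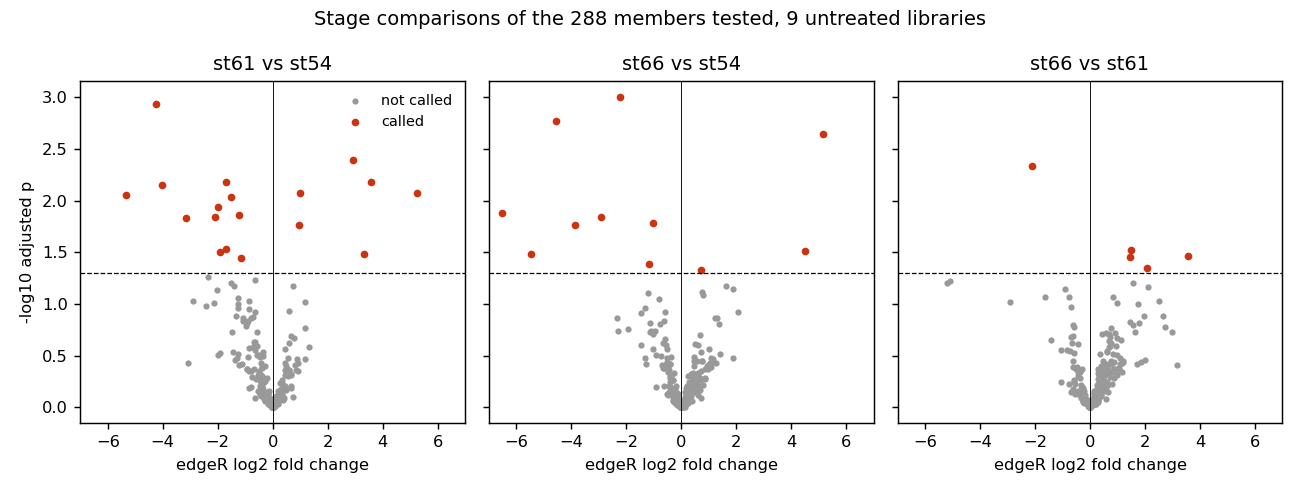
For the 288 members tested, the x axis is edgeR's log2 fold change between 2 stages and the y axis -log10 of the adjusted p, with a dashed line at 0.05 and called members in red. 18 members were called in st61 vs st54, 11 in st66 vs st54 and 5 in st66 vs st61, and most of the others lie near 0.

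Members lay on all 10 chromosomes, with between 12 and 42 on each. 11 pairs of members were next to each other in the gene order. On chr2 these were the ccl4 neighbours described above and uggt2 with dnajc3, whose spans overlap on opposite strands. On chr3 they were lman2 with tmed9, both cargo receptors, 3729 bases apart, and thap5 with dnajb9, 133 bases apart and on opposite strands. On chr4 manf lay 7681 bases from dock3, on chr5 LOC100494455 lay 6704 bases from ccl20, and on chr8 clptm1 lay 10208 bases from relb. The start and end of all 296 members equal those of the UCB_Xtro_10.0 assembly, and coordinates are as the deposited table gives them. 9 members share exon bases with another gene, 8 of them with a gene on the opposite strand, and in 3 (slc35d2, sds and ap5b1) that gene had the higher T3 mean. The median exon length was 2606 bases in members and 2731 in all genes at 5 CPM in T3, and 9.12% of members had no symbol against 10.0% of those genes.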

How the data were processed

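Liver RNA was sequenced in 12 libraries. The authors deposited raw read counts per gene, used here as deposited. Per the submitters' processing notes, cutadapt 3.4 and STAR 2.7.8a were used. For the genome build, annotation, strand setting and treatment of marked duplicates, the tool or choice is not given in the sources used. Lines of 2 genes, broken over 6 lines, were left out. Where nothing but the design text says that replicates are separate animals, p-values measure the spread between these samples, which may be technical. CPM used the column totals, from 7928459 to 39536147. Members and gene lists were chosen with earlier results of these data known. Stages were compared with edgeR 4.0.16 (limma 3.58.1, R 4.3.3): TMM factors, filterByExpr, robust quasi-likelihood fit of the 9 untreated libraries, 6 residual degrees of freedom. DESeq2 1.42.0 was an alternative. The fit was tested on simulated data: of 200 changed among 14575 genes, 94 were called, with 7 false calls. A count of 3 was the floor, worth 0.0759 to 0.378 CPM, and intervals cover counting error only. Genes were named by rule: the 12 largest ratios and 12 highest levels, members on lists, the strongest stage calls, genes nearest the limits, and symbol families. Others were named to illustrate a role, after their values were seen. Promoter motifs were not searched, since no sequences were used here.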

Additional observations from a re-analysis of the deposited data

How the results depend on the processing

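The number of member genes, 296, became 137 with TMM-scaled library sizes, 124 with DESeq2 size factors, 651 at a 2-fold and 153 at a 3-fold limit, and 220 to 394 without any 1 library. Without st66 replicate 2 or 3 it was 220 or 224, and without st66 replicate 1 it was 394. It was 453 without st66 replicate 1 and st54 replicate 3 together, a setting added after seeing the data. Called members are given here in the order higher and lower for st61 vs st54, st66 vs st54 and st66 vs st61, where the counts reported were 6, 12, 3, 8, 4 and 1. Leaving out 1 library gave 4 to 11, 5 to 20, 1 to 8, 3 to 14, 0 to 14 and 1 to 15. Without both libraries named above the counts were 43, 32, 19, 23, 26 and 47. DESeq2 moved st61 vs st54 lower to 22, st66 vs st54 higher to 8, and st66 vs st61 to 15 and 8, where 7.65%, 7.11%, 5.12% and 4.54% of all genes were called. All 12 libraries in the fit gave 27, 9, 13, 13 and 8 for all but st61 vs st54 higher, where 8.85%, 8.23%, 5.48%, 5.75% and 4.28% of all genes were called. Only the 2 stages compared gave 11 for st61 vs st54 higher, 1 and 5 for st66 vs st54, and 2 and 4 for st66 vs st61, beside 8.34%, 2.09%, 1.91%, 1.26% and 1.19% of all genes. The replicate numbers did not pair the libraries, since same-number correlations ran from -0.12 to 0.16 and in 4 of 18 comparisons of a library with another group it correlated best with its own number. With the replicate block the st66 vs st61 higher count was 1, beside 0.754% of all genes, and the other counts stayed within 1.5 times. The cause of these moves was not tested. Over 18 single-gene calls and 288 alternative values, 231 kept the call, 57 lost it and 0 reversed. Within st66, chi-square per gene was 15.1 between replicates 2 and 3 and 144 and 179 for the pairs with replicate 1. St66 replicates 2 and 3 were the shallowest libraries, and 3 counts were worth 0.378 and 0.353 CPM in them.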
